A study of Mus musculus with 9 samples.

Results

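The genes described here encode the glucose transporters and the glycolytic isozymes that most mammalian cells use: *Slc2a1*, *Slc2a3*, *Hk1*, *Hk2*, *Pfkl*, *Pfkm*, *Pfkp*, *Pkm*, *Ldha* and *Ldhb*. They were chosen by name, for their place in glucose uptake and glycolysis, and are 10 of the 55450 genes counted in each library. RNA was sequenced from Rathke's pouch, the epithelial fold from which the anterior and intermediate lobes of the pituitary form, and from the adult gland. The question was how expression in the gland differs between development and maturity. The strand-specific read counts summed to 16738863 to 28537311 per embryo library (median 24687556), and to 36421545 and 31191117 in adults 1 and 2.

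The embryo group was 7 Rathke's pouches at e13.5 from embryos with the genotype Sox2Egfp/+. The adult group was 2 anterior pituitaries from mice at postnatal week 8, whose posterior lobe had been removed; their labels give no *Sox2* allele. The strain label of both groups was 129Sv/c57BL6J and the labels name no treatment. Each library came from 1 animal, and sex was mixed in both groups and not given per library. The age and the dissected tissue differ between the groups and cannot be told apart, and whether the *Sox2* allele differs too is not given in the sources used here.

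Glucose enters cells through facilitative transporters of the Slc2a family and is held there by hexokinase, which phosphorylates it. Phosphofructokinase catalyses the main regulated step of glycolysis, pyruvate kinase makes pyruvate, and lactate dehydrogenase interconverts pyruvate and lactate. Each step is served by isozymes from separate genes that differ in regulation and in the tissues that use them, so the share of each isozyme describes a tissue as much as the total does.

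The markers of the labelled tissues were examined first. All 10 pituitary epithelium genes were detected, with a summed level of 761 to 1829 CPM in the embryos and 1025 and 950 CPM in adults 1 and 2, where CPM is the count relative to the TMM-scaled library total. By mean CPM per kb of transcript, which sets the order of genes here, *Pitx1* led in the embryo and *Epcam* in the adult, and *Hesx1*, a factor of the early pouch, had 9.62 to 35.4 CPM per kb in the embryos against 0.297 and 0.493 in adults 1 and 2. Of the 10, 6 were higher in the embryo, 3 did not pass, and *Sox2* alone was higher in the adult, at 31.2 and 27.6 CPM per kb against 12.9 to 21.8 (log2 difference −0.70, adjusted p = 0.0282). The embryos were Sox2Egfp/+ and the adult labels give no *Sox2* allele, so the *Sox2* difference cannot be read as one of stage alone. The part of the allele in it was not tested. The 9 hormone cell genes summed to 888 to 1940 CPM in the embryos and to 151453 and 160036 CPM in adults 1 and 2, led by *Cga* in the embryo and by *Gh*, which encodes growth hormone, in the adult.

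Other cell types were present too, and their part in the differences below was not tested. The 10 erythroid genes summed to 178695 and 224037 CPM in embryos 1 and 4, to 6395 to 19865 CPM in the remaining embryos, and to 767 and 1983 CPM in adults 1 and 2, led by *Hbb-y*, an embryonic globin, in the embryo and by *Hbb-bs* in the adult. The share of read pairs counted on a gene was 59.7% and 62.8% in these libraries, 73.9% to 80.0% in the remaining embryos, and 84.0% and 83.7% in adults 1 and 2. The 8 endothelial genes summed to 233 to 753 CPM in the embryos and 149 and 92.9 CPM in adults 1 and 2, led by *Cldn5* in the embryo and *Egfl7* in the adult. The 7 mesenchyme and cartilage genes, led by *Col3a1* in both stages, summed to 670 to 1938 CPM in the embryos and to 244 and 184 CPM in adults 1 and 2. The 6 hypothalamus and posterior lobe genes, led by *Rax* in the embryo and *Col25a1* in the adult, summed to 64.2 to 180 CPM in the embryos and to 35.2 and 45.4 CPM in adults 1 and 2. Of these 6, 3 were higher in the embryo and 3 in the adult at an adjusted p below 0.05, and *Avp*, a posterior lobe hormone gene, had no count in any embryo. The 8 neuron genes, led by *Nefl* in the embryo and *Snap25* in the adult, summed to 175 to 382 CPM in the embryos and to 643 and 622 CPM in adults 1 and 2. The 6 leukocyte genes, led by *C1qa* in both stages, summed to 66.5 to 197 CPM in the embryos and to 75.1 and 116 CPM in adults 1 and 2, and the 7 muscle genes, led by *Des* in both, summed to 5.62 to 11.2 and to 3.49 and 1.69 CPM, with no adult count for *Myod1* or *Myh3*. In bulk tissue, fewer cells of a type and less RNA per cell cannot be told apart.

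All 10 genes passed the filter on low counts and were among the 19371 genes tested. By edgeR's quasi-likelihood test, 5 of the 10 were higher in the embryo at an adjusted p below 0.05, as were 24.0% of all genes tested, and 2 were higher in the adult, as were 27.4%. A fold change above 4 in addition was reached by 2 of the 10 in the embryo direction, against 11.3% of all genes, and by 1 in the adult direction, against 14.6%. The counts in the embryo direction, 5 of the 10 and 4650 of all genes, fell to 3 and 2062 under the TPM scaling named below, and to 4 and 2429 without adult 2. All 7 embryos lay above both adults for 5 of the 10 genes (26.2% of all genes) and below both for 3 (32.9% of all genes). The median log2 difference, embryo over adult, was 0.92 over the 10 genes and −0.04 over all genes tested. Other scalings moved the median of all genes, to −0.26 with library size alone and to −0.57 with the TPM denominator, the latter an added choice made after the data were seen. Both scalings also lowered the log2 difference of each of the 10 genes, such as *Slc2a1*, from 1.26 to 1.06 and 0.75. The 0.92 is therefore to be read beside −0.04 and not beside the medians under other scalings. These counts describe 10 chosen genes only.

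**Figure D1:**
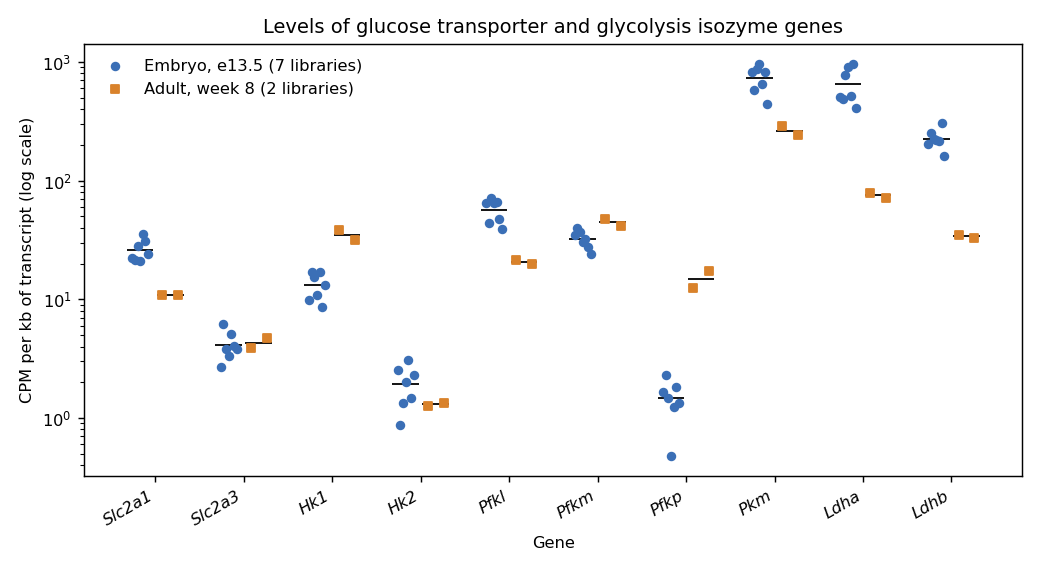
Level of each gene in every library, in CPM per kb of transcript on a log axis; circles are the 7 embryos, squares the 2 adults, and lines the group means. The groups overlap for *Slc2a3* and *Hk2* and are apart for the other genes.

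Levels below are in CPM per kb of the longest coding transcript, so that genes can be compared. *Slc2a1* encodes the transporter for basal glucose uptake (ENSMUSG00000028645.11, chromosome 4, 119108711 to 119137983 in GRCm38). It ran from 21.2 to 35.2 CPM per kb in the embryos (median 23.8) and was 10.9 in both adults. The log2 difference, embryo over adult, was 1.26 (SE, the standard error, 0.29; adjusted p = 0.00226). Every embryo was above both adults in CPM per kb. In TPM, embryos 1 and 4 (21.5 and 18.4) lay below both adults (23.1 and 23.5), and *Slc2a1* was the only one of the 10 genes whose groups overlapped in TPM and not in CPM per kb. With libraries scaled by the TPM denominator the difference was 0.75 and did not pass (adjusted p = 0.229; the range over 20 alternatives was 4.79e-05 to 0.229). *Slc2a3*, the high-affinity transporter best known from neurons (ENSMUSG00000003153.10, chromosome 6, 122727809 to 122801640), ran from 2.66 to 6.17 CPM per kb in the embryos (median 3.84) and was 3.88 and 4.69 in adults 1 and 2. The log2 difference was −0.05 (SE 0.33, adjusted p = 0.905), and the groups overlapped.

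Within the pair, *Slc2a1* made up 77.6% to 89.4% of the counts per length in the embryos (median 87.4%) and 73.8% and 69.95% in adults 1 and 2. The means were 86.2% ± 3.99 (SD, n = 7) and 71.9% ± 2.73 (SD, n = 2), a difference of 14.3 percentage points. Every embryo was above both adults, and the two-sided exact permutation test gave p = 0.0278, the smallest that 36 choices of 2 from 9 libraries allow. Adjusted over the 6 shares tested, p was 0.0333. With the p taken as the doubled one-sided permutation p, which was added after the data were seen, the smallest value possible is 0.0556, so no share could pass (adjusted p = 0.0667 for the 5 that otherwise passed). None of the 5 passed when embryo 4, 5, 6 or 7 was left out (adjusted p = 0.0536, or 0.0857 to 0.129 for *Hk1*), although the other 4 kept the smallest p possible, 0.0357. None passed without embryos 1 and 4 together (0.0714, or 0.171 for *Hk1*), where that smallest p is 0.0476, or after correction for transcript length and GC content (0.0556 to 0.0667). The *Slc2a1* share difference was 8.78 points after that correction, with overlapping groups, and 35.1 points with all paralogs in the denominator. Those paralogs include *Slc2a13*, the inositol transporter described below, with a mean of 0.51 CPM per kb in the embryos and 22.1 in the adults. The summed level of the pair was 1.40 times the adult level in TPM, with overlapping groups, and 1.99 times in CPM per kb, without overlap.

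Hexokinase commits glucose to metabolism. *Hk1*, the widely expressed form bound to mitochondria (ENSMUSG00000037012.18, chromosome 10, 62268855 to 62379908), ran from 8.68 to 17.1 CPM per kb in the embryos (median 13.3) and was 38.3 and 31.4 in adults 1 and 2. All embryos were below both adults, and the log2 difference was −1.41 (SE 0.27, adjusted p = 7.65e-04). *Hk2*, the form linked to insulin-sensitive tissue and muscle (ENSMUSG00000000628.10, chromosome 6, 82725025 to 82774454), ran from 0.876 to 3.10 CPM per kb in the embryos (median 2.00) and was 1.26 and 1.34 in adults 1 and 2, with overlapping groups. The log2 difference of 0.58 (SE 0.44) did not pass (adjusted p = 0.288), but after correction for transcript length and GC content it was 1.27 (adjusted p = 0.0364; range over 20 alternatives 0.0364 to 0.947). The *Hk1* share of the pair was 79.5% to 95.1% in the embryos (median 85.3%) and 96.8% and 95.9% in adults 1 and 2, with means of 86.6% ± 5.21 (SD, n = 7) and 96.4% ± 0.635 (SD, n = 2). The groups did not overlap, although embryo 2 lay close to the adults (exact permutation p = 0.0278, adjusted 0.0333). The difference of −9.72 points depended on the length used, at −3.03 with the median coding transcript and −15.4 with the union of exons. The summed hexokinase level was 0.300 times the adult level in TPM and 0.417 times in CPM per kb.

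Phosphofructokinase is a tetramer built from 3 subunits named for liver (*Pfkl*), muscle (*Pfkm*) and platelet (*Pfkp*). *Pfkl* (ENSMUSG00000020277.10, chromosome 10, 77986947 to 78010083) ran from 39.0 to 71.6 CPM per kb in the embryos (median 64.1) and was 21.6 and 19.8 in adults 1 and 2. Every embryo was above both adults, and the log2 difference was 1.46 (SE 0.31, adjusted p = 0.00143). It did not pass under TPM scaling, at 0.88 (adjusted p = 0.0967; range over 20 alternatives 9.48e-06 to 0.0967). *Pfkm* (ENSMUSG00000033065.14, chromosome 15, 98092589 to 98132451) ran from 23.9 to 39.7 CPM per kb in the embryos (median 32.2) and was 47.4 and 41.6 in adults 1 and 2. All embryos were below both adults, but the log2 difference of −0.46 (SE 0.24) did not pass (adjusted p = 0.126). It passed after correction for transcript length and GC content, at −0.70 (adjusted p = 0.00530), and under TPM scaling, at −1.01 (adjusted p = 0.0481).

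*Pfkp* (ENSMUSG00000021196.14, chromosome 13, 6579768 to 6648777) was the member with the largest difference in the adult direction. It ran from 0.477 to 2.32 CPM per kb in the embryos (median 1.48) and was 12.4 and 17.2 in adults 1 and 2. The log2 difference was −3.32 (SE 0.37, adjusted p = 9.23e-06), and every embryo lay below both adults. The embryo values rest on 28 to 285 counts, and the lowest was embryo 4. *Pitrm1* overlaps *Pfkp* on the opposite strand, with a mean of 1687 counts in the embryos. The strand-specific count assigns read pairs by strand, and whether some were assigned to the wrong strand here was not tested.

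As shares of the 3 subunits, *Pfkl* held 51.0% to 67.6% in the embryos (median 63.6%) against 26.5% and 25.2% in adults 1 and 2. The means were 62.3% ± 5.54 (SD, n = 7) and 25.8% ± 0.928 (SD, n = 2). *Pfkm* held 31.9% to 46.3% in the embryos (median 34.8%) against 58.2% and 52.9%, and *Pfkp* 0.503% to 2.71% (median 1.65%) against 15.3% and 21.9%. All 3 shares had groups that did not overlap (exact permutation p = 0.0278 each, adjusted 0.0333), and *Pfkl* led in every embryo and *Pfkm* in both adults. The lead depended on the length used for 2 libraries: *Pfkm* led in embryo 2 with the union of exons (57.6% against 41.2% for *Pfkl*), and *Pfkp* in adult 2 with the median coding transcript (35.9% against 35.6% for *Pfkm*). The *Pfkp* difference of −16.9 points was −28.3 with the median coding transcript as length and −7.69 with the union of exons. The summed level was 64.3 to 110 CPM per kb in the embryos and overlapped the adults, with an embryo-to-adult ratio of 1.13 in CPM per kb and 0.765 in TPM.

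**Figure D2:**
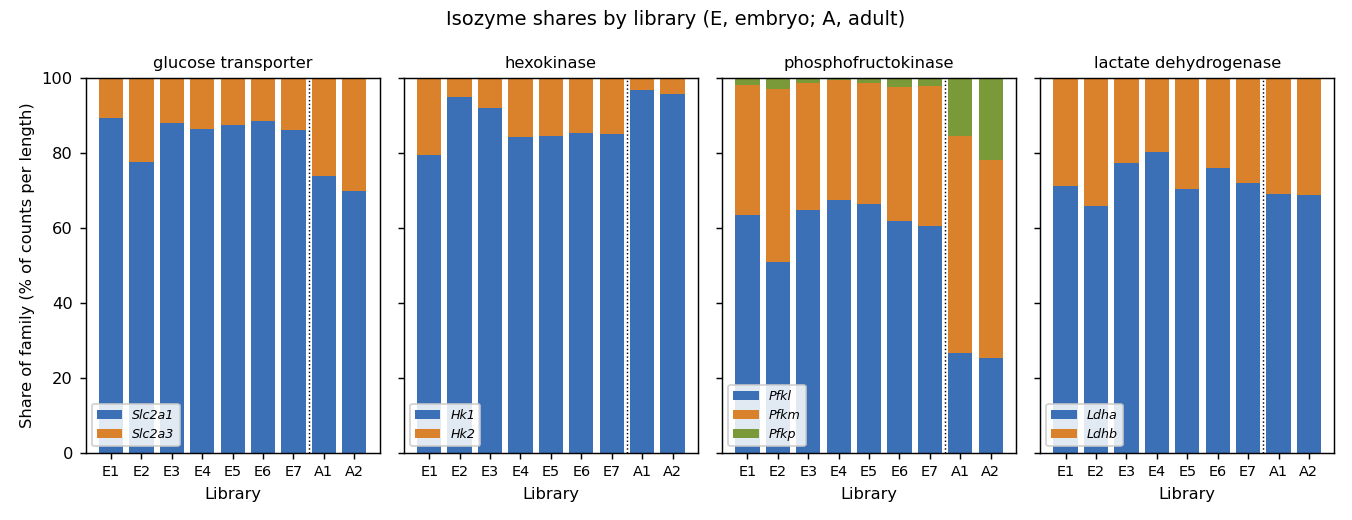
Share of each isozyme in its family, as percent of counts per transcript length, for embryos 1 to 7 and adults 1 and 2. The *Pfkl* share is 51.0% to 67.6% in the embryos and 26.5% and 25.2% in adults 1 and 2, while the *Ldha* share overlaps.

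Pyruvate kinase M, the product of *Pkm* (ENSMUSG00000032294.17, chromosome 9, 59656368 to 59679375), was the most abundant of the 10 in both groups. It ran from 439 to 965 CPM per kb in the embryos (median 822) and was 285 and 242 in adults 1 and 2. Every embryo was above both adults, and the log2 difference was 1.48 (SE 0.36, adjusted p = 0.00378). Without adult 2 it was 1.35 and did not pass (adjusted p = 0.0677; range over 20 alternatives 3.19e-05 to 0.0677). Embryo over adult, the level was 1.81 in TPM and 2.79 in CPM per kb. The gene makes the M1 and M2 isoforms by choosing between a pair of exons, and gene counts do not separate them. Of the 5 splicing factors named for that choice, 3 were higher in the embryo (*Ptbp1*, *Hnrnpa1* and *Srsf3*, with log2 differences of 1.10, 1.22 and 1.11) and none was higher in the adult at an adjusted p below 0.05, against 24.0% and 27.4% of all genes tested. *Hnrnpa2b1*, the factor with the highest adult level, did not pass (log2 difference −0.04).

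*Ldha* and *Ldhb* encode the muscle-type and heart-type subunits of lactate dehydrogenase, and both were among the 3 genes past a 4-fold difference, with *Pfkp*. *Ldha* (ENSMUSG00000063229.15, chromosome 7, 46841475 to 46855627) ran from 412 to 963 CPM per kb in the embryos (median 512) and was 78.1 and 71.9 in adults 1 and 2. The log2 difference was 3.12 (SE 0.44, adjusted p = 7.34e-05). *Ldhb* (ENSMUSG00000030246.11, chromosome 6, 142490249 to 142507957) ran from 160 to 304 CPM per kb in the embryos (median 221) and was 34.9 and 32.6 in adults 1 and 2, and the log2 difference was 2.74 (SE 0.32, adjusted p = 1.48e-05). For both genes all embryos were above both adults. *Ldhb* fell below the 4-fold threshold after correction for transcript length and GC content, at 1.61, and *Ldha* was 2.40 after that correction. Under TPM scaling the log2 differences were 2.50 for *Ldha* and 2.17 for *Ldhb*. STAR counted only uniquely placed read pairs, so read pairs that *Ldha* shares with its processed copies in the genome were not counted.

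Both genes were higher in the embryo, and a difference in their shares was not shown. *Ldha* held 65.9% to 80.4% of the pair in the embryos (median 72.0%) and 69.1% and 68.8% in adults 1 and 2, with means of 73.4% ± 4.90 (SD, n = 7) and 68.9% ± 0.244 (SD, n = 2). The adults lay inside the embryo range (exact permutation p = 0.306, adjusted 0.306). The difference was 4.42 points. It was 10.4 after correction for transcript length and GC content (adjusted p = 0.0833) and 5.67 without embryo 2 (adjusted p = 0.107), and in both the groups did not overlap. The summed level was 5.29 times the adult level in TPM and 8.05 times in CPM per kb.

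Within each group the levels, which depend on the transcript length used, followed an order that differed between the stages. In the embryos the order by mean was *Pkm* and *Ldha*, whose ranges overlapped, then *Ldhb*, *Pfkl*, *Pfkm*, *Slc2a1*, *Hk1*, *Slc2a3*, *Hk2* and *Pfkp*. The ranges of *Pfkl* and *Pfkm*, of *Pfkm* and *Slc2a1*, and of each neighbouring pair from *Slc2a3* to *Pfkp* overlapped, while *Ldhb* and *Hk1* stood clear of both their neighbours. In the adults the order by mean was *Pkm*, *Ldha*, *Pfkm*, *Hk1*, *Ldhb*, *Pfkl*, *Pfkp*, *Slc2a1*, *Slc2a3* and *Hk2*, and the values of *Hk1* and *Ldhb* overlapped. By mean, *Pfkp* was thus last in the embryos and above *Slc2a1* in the adults, although it lay above *Hk2* in embryos 2, 3 and 6. Among the embryos the coefficient of variation ran from 17.1% for *Pfkm* to 39.7% for *Hk2*, and was 38.5% for *Pfkp* and 34.5% for *Ldha*. Without embryos 1 and 4, the log2 difference was 1.38 for *Slc2a1*, −1.26 for *Hk1*, 1.40 for *Pfkl*, −3.15 for *Pfkp*, 1.37 for *Pkm*, 3.09 for *Ldha* and 2.79 for *Ldhb*, and the same 7 genes passed.

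The upstream 250 bases of the RefSeq promoter windows (GRCm38.p6) are shown for the 3 genes past a 4-fold difference, because the core letters of the hypoxia response element, ACGTG and GCGTG, can be read in them. The letters were searched on both strands and stand in capitals, so a reverse match reads CACGT or CACGC. The windows lie at chr7:46845554-46845803 on the plus strand for *Ldha*, within its annotated gene but outside its exons, at chr6:142507958-142508207 on the minus strand for *Ldhb*, just upstream of the gene, and at chr13:6648772-6649021 on the minus strand for *Pfkp*, of which 6 bases are annotated as UTR.
Ldha: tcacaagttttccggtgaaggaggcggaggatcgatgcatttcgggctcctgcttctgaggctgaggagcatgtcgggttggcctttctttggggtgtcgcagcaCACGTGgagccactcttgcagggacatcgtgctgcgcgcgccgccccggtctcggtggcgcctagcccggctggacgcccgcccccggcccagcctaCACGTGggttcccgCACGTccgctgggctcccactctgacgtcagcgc
Ldhb: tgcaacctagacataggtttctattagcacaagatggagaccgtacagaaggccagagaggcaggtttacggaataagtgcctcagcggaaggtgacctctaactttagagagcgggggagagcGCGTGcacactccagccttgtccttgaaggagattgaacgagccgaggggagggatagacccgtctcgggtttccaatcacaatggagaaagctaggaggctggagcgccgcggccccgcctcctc
Pfkp: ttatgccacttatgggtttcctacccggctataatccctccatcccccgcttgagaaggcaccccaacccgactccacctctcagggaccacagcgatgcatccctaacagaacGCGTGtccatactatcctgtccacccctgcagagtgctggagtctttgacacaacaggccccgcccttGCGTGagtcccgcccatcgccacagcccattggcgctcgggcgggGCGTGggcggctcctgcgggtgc

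The *Ldha* window shown held 5 matches to ACGTG, of which the palindrome CACGTG gives a match on each strand, and none to GCGTG. A second *Ldha* window, at chr7:46846832-46847081, held no ACGTG and 1 GCGTG. The bases that directly follow the window shown were found in no annotated *Ldha* transcript, while those that follow the second window were. The *Ldhb* window held 1 match to GCGTG and the *Pfkp* window 3, and neither held ACGTG. Of the 32817 windows in the table, 16.6% held ACGTG, 28.1% held GCGTG and 38.6% held either. Windows were found for 9 of the 10 genes, all but *Slc2a3*, and 12 of their 15 windows held either. A match is a description of letters and says nothing of binding.

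The other genes of the pathway are given by list, each to be read beside the 24.0% and 27.4% of all genes tested that were higher in the embryo and in the adult, and beside their median of −0.04. Of the 14 tested genes of middle and lower glycolysis, 8 were higher in the embryo and 4 higher in the adult at an adjusted p below 0.05, with a median log2 difference of 0.93. The most abundant was *Gapdh* in the embryo, at 671 to 1631 CPM per kb against 368 and 304 in adults 1 and 2 (log2 difference 1.80, SE 0.39, adjusted p = 0.00158), and *Aldoa* in the adult, at 446 and 356 against 261 to 613 in the embryos, which did not pass. *Pgam2*, a muscle form of phosphoglycerate mutase, had 47 to 143 counts in the embryos and none in either adult, which makes it at least 54.4-fold higher in the embryo against a floor of 3 counts per library. In embryos 1 and 4, where erythroid genes summed highest, *Pgam2* had 12.5 and 6.38 CPM per kb. The remaining embryos had 1.80 to 4.87, and which cells the *Pgam2* counts came from was not tested. The isozymes *Aldoc* and *Eno2*, chosen after their values were seen, were higher in the adult, with log2 differences of −3.13 and −3.18.

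**Figure D3:**
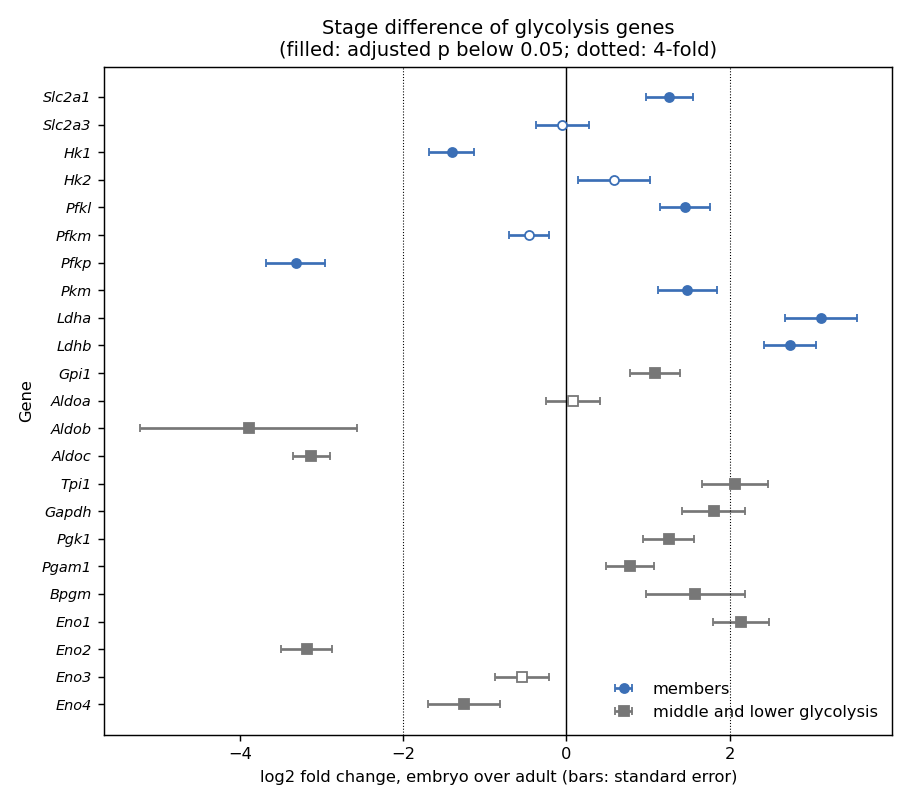
Log2 fold change, embryo over adult, with its SE for the 10 genes and the tested genes of middle and lower glycolysis except *Pgam2*, which had no adult counts. Filled symbols have an adjusted p below 0.05, and dotted lines mark a 4-fold difference.

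*Aldoc* made up 1.47% to 2.82% of the aldolase counts per length in the embryos and 13.4% and 17.8% in adults 1 and 2. *Eno1* made up 88.0% to 94.9% of the enolase counts in the embryos against 61.0% and 45.1%, *Eno3* 4.12% to 10.0% against 20.8% and 29.1%, and *Eno2* 0.509% to 1.61% against 16.4% and 24.5%. These shares were described and not tested.

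**Figure D4:**
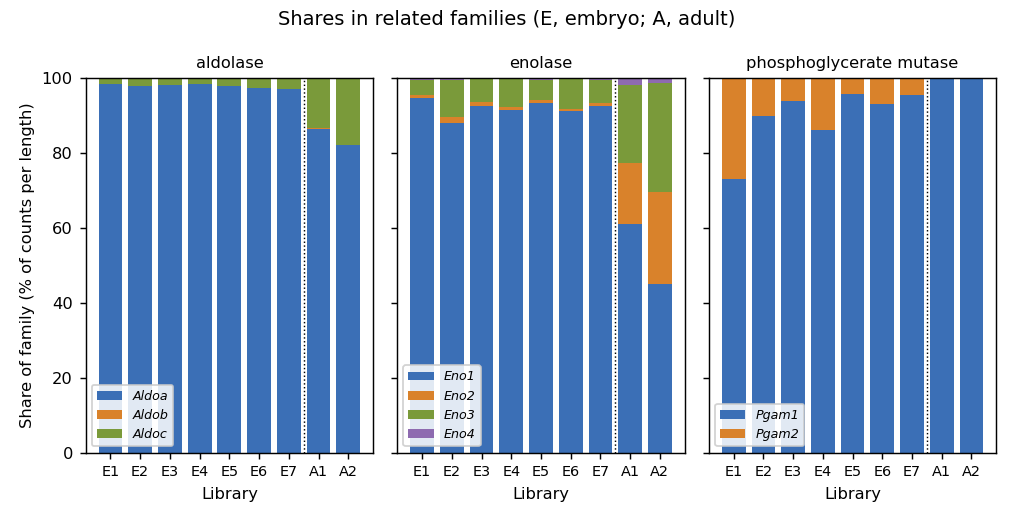
Share of each gene in the aldolase, enolase and phosphoglycerate mutase families, as percent of counts per transcript length, for embryos 1 to 7 and adults 1 and 2. *Eno1* holds 88.0% to 94.9% in the embryos and 61.0% and 45.1% in adults 1 and 2.

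Among the 10 tested other glucose transporters, 1 was higher in the embryo and 4 in the adult (median log2 difference 0.11). *Slc2a13*, a proton-coupled inositol transporter of the same family, had 0.149 to 1.03 CPM per kb in the embryos and 18.6 and 25.7 in adults 1 and 2 (log2 difference −5.44, SE 0.51, adjusted p = 2.57e-06), and *Slc2a8* was the most abundant of the list in the embryo, at 3.83 to 7.38 against 5.76 and 5.41, with overlapping groups. *Hkdc1*, a paralog of the hexokinases, had no count in any embryo and 22 and 24 counts in adults 1 and 2, at least 4.19-fold higher there against a floor of 3 counts per library. *Pklr*, the liver and red cell pyruvate kinase, and *Bpgm*, which makes the allosteric regulator of haemoglobin, were named after their values were seen. *Bpgm* had 162 and 244 CPM per kb in embryos 1 and 4, where erythroid genes summed highest, and 46.2 to 68.2 in the remaining embryos. *Pklr* had 0.858 and 3.01 CPM per kb in the same 2 libraries and at most 0.273 in the others.

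Genes that set the activity of phosphofructokinase or reverse glycolysis were tested for 10 of 12, with 2 higher in the embryo and 4 in the adult (median −0.32). *G6pc3* was the most abundant and did not pass, and *Fbp1* was higher in the embryo, at 1.44 to 6.39 CPM per kb against 0.475 and 0.646 (log2 difference 2.78, adjusted p = 0.00215). For lactate and pyruvate transport, 2 of 6 tested were higher in the embryo and 1 in the adult (median 0.19). *Bsg*, the chaperone of the lactate transporters, was the most abundant and did not pass, and *Slc16a3*, which exports lactate, was higher in the embryo, at 2.17 to 8.87 CPM per kb against 0.928 and 1.61 (log2 difference 2.29, adjusted p = 0.00214). Of 12 tested genes of pyruvate dehydrogenase and its control, 1 was higher in the embryo and 3 in the adult (median −0.68). *Pdhb* was the most abundant and did not pass, and *Pdk4*, a kinase that switches the complex off, was higher in the adult, at 3.54 and 2.75 CPM per kb against 0.122 to 0.758 (log2 difference −2.96, adjusted p = 4.99e-04).

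Of the 17 genes of the hypoxia response, 4 were higher in the embryo, 4 were higher in the adult and 9 did not pass (median −0.17), where all genes tested gave 24.0% and 27.4%. *Epas1* was higher in the adult (log2 difference −1.82, adjusted p = 0.00149), at 10.7 and 12.3 CPM per kb against 1.63 to 5.45 in the embryos. *Egln2*, a prolyl hydroxylase, was the most abundant in the embryo and higher there (0.95, adjusted p = 0.0216), and *Bnip3* was the most abundant in the adult and did not pass. Of the 11 other regulators, 2 were higher in the embryo and 3 in the adult (median −0.11). *Txnip*, which restrains glucose uptake, was the most abundant and did not pass, and *Ppargc1a*, a coactivator of mitochondrial genes, was higher in the adult (log2 difference −3.82, adjusted p = 2.39e-05), at 1.36 and 1.46 CPM per kb against 0.0437 to 0.179 in the embryos.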

How the data were processed

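Poly(A) RNA from each animal was made into a directional library and read as paired reads. Per the submitters' processing notes, the authors trimmed reads with Trimmomatic 0.39 and aligned them with STAR 2.7.5b to mm10. The deposited files hold counts of uniquely placed read pairs per gene from STAR, not normalised, for Ensembl release 96 genes. The strand-specific column was used. Read pairs that were unmapped, placed in several loci, ambiguous or on no gene were left out of library sizes and tests (40.3% and 37.2% of read pairs in embryos 1 and 4, 20.0% to 26.1% in the remaining embryos, and 16.0% and 16.3% for adults 1 and 2). Counts are not deduplicated, so floors cover counting error only.

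All 55450 identifiers were found in GENCODE M21, which gave symbols, lengths and positions. Genes averaging at least 5 counts, 19371 in all, were tested with edgeR 4.0.16 (R 4.3.3, TMM, quasi-likelihood, stage as the only term, Benjamini-Hochberg). The thresholds were an adjusted p of 0.05 and a fold of 4. Shares used counts per longest coding transcript and an exact permutation test in Python 3.11.15. The fits were tested on simulated data. Alternatives were DESeq2 1.42.0, other scalings, filters, lengths, the unstranded count, a length and GC correction, libraries left out and a replicate block. Named genes had the largest level in either stage or the largest fold among those that passed. Members and lists were chosen with earlier results of these data known.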

Additional observations from a re-analysis of the deposited data

Results flagged for a closer look

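Embryo 2 stood apart from the other 6 embryos in 3 shares, judged by the gap to its nearest neighbour as a fraction of the range over the 7. Its *Slc2a1* share was 77.6% against 86.1% to 89.4% in the others (gap ratio 0.725). Its *Pfkl* share was 51.0% against 60.7% to 67.6% (0.582), and its *Pfkm* share was 46.3% against 31.9% to 37.2% (0.629). The *Pfkl* and *Pfkm* shares belong to 1 family and are not independent. In all, 24 such sets of 7 values were examined, and chance takes about 1 in 20 past the critical value of 0.568. Embryo 2 also had the highest summed level of the endothelial (753 CPM), leukocyte (197 CPM) and hypothalamus and posterior lobe (180 CPM) genes among the embryos, and the lowest of the pituitary epithelium genes (761 CPM). Their part in these shares was not tested. Without embryo 2 the embryo minus adult difference was 15.8 percentage points for *Slc2a1*, 38.4 for *Pfkl* and −21.3 for *Pfkm*.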

How the results depend on the processing

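Each of the 7 genes that passed kept its direction in all 20 alternatives, and *Slc2a3*, which did not pass, changed sign. The added TPM scaling, chosen after seeing the data like the other added ones, left 3 of the 10 genes higher in the embryo, with 2062 of all genes passing and 1181 called in that direction. The length and GC correction left 1 of the 10 called in the embryo direction. Without a fold threshold (added), 5 and 2 of the 10 would be called in the embryo and adult directions, and 4650 and 5298 of all genes. The summed level of phosphofructokinase, embryo over adult, was 1.13 in CPM per kb (added) against 0.765 in TPM, that of lactate dehydrogenase 8.05 against 5.29, and that of pyruvate kinase 2.79 against 1.81. The cause was not tested.

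For the shares, the embryo minus adult difference in percentage points is given first for alternatives that lost the test. The doubled p (added) left 14.3 for *Slc2a1*, −9.72 for *Hk1*, 36.5 for *Pfkl*, −19.6 for *Pfkm* and −16.9 for *Pfkp* with an adjusted p of 0.0667, and could pass for none, since its smallest value is 0.0556. The length and GC correction gave 8.78, −11.1, 39.6, −27.3 and −12.3 in the same order, and the *Slc2a1* groups then overlapped. Without embryos 1 and 4 they were 13.7, −7.86, 35.2, −18.6 and −16.6, where the smallest p that 21 choices of 2 from 7 libraries allow, 0.0476, adjusts to 0.0714. The *Hk1* share was above that limit there (exact permutation p = 0.143). Leaving out embryo 4, 5, 6 or 7 also lost it for all 5, while without embryo 1, 2 or 3 they passed (adjusted p = 0.0429). Over all 9 libraries left out in turn, they ran from 12.4 to 16.3, −11.1 to −8.53, 35.6 to 38.4, −22.3 to −17.0 and −20.2 to −13.6. Genes passing ran from 2429 to 5192 in the embryo direction and from 3410 to 5526 in the adult direction, and 4 to 5 of the 10 in the embryo direction. Where 1 adult was left out, the edgeR fit assumes the lone adult varies like the embryos, and shares have no test.

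The replicate numbers name different animals, and deviations of same-numbered libraries correlated at 0.0331 and 0.000313. A replicate block on replicates 1 and 2 left 5 and 2 of the 10 passing, with 3295 and 4095 of all genes in the embryo and adult directions. The same 4 libraries with no block (added) gave 3412 and 3509. With 2 adults, the adult spread rests on a single difference.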
